A study of Rattus norvegicus with 115 samples.

Results

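Leukocytes sorted from mammary tumours of rats given an anti-PD-L1 antibody together with the TGFBR1 inhibitor LY2157299 were compared with leukocytes of rats given the antibody alone. The comparison covers 16 of the 44 leukocyte columns of the deposited count table, which come from 11 rats. They were chosen by a level of Ptprc, the gene of the pan-leukocyte surface protein CD45, of at least 300 CPM (counts scaled by the column's total). Of these, 8 columns belonged to 6 rats on antibody and inhibitor (labelled PDL1+LY; P23, P31, P33, P34, P35 and P36) and 8 to 5 rats on the antibody alone (labelled PDL1; P24, P26, P27, P28 and P29). Columns of 1 rat were summed, because the rat received the treatment, and the rat is the replicate. Rat P31 gave 3 tumours and rats P24, P26 and P29 gave 2 each.

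The study followed virgin Sprague Dawley rats in which tumours arose after the carcinogen NMU (N-nitroso-N-methylurea), of which they had 1 to 3 intraperitoneal doses of 50 mg/kg when 35 to 53 days old. Treatment began once tumours could be felt, so all 11 rats carried NMU tumours and all 11 received the antibody. The groups differ in LY2157299 (galunisertib), which was added in the PDL1+LY rats. Leukocyte columns of 5 rats on the inhibitor alone (LY) and of 8 rats on vehicle (Vehicle) entered the same fit and served for 1 further comparison. The labels give no dose or duration of treatment and do not say whether the PDL1 rats received the inhibitor's vehicle. Because NMU tumours arise one by one, tumours can differ within a rat as well as between rats.

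PD-L1, encoded by Cd274, is carried by tumour and myeloid cells and dampens T cells through the receptor PD-1, encoded by Pdcd1. An antibody against PD-L1 blocks that contact. TGF-beta signals through TGFBR2 and the kinase TGFBR1, which phosphorylates SMAD proteins. In tumours it is known to restrain cytotoxic T cells, to favour regulatory T cells and to drive fibroblasts to lay down matrix, which is the usual reason for combining such drugs.

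Ptprc separated the columns by a wide gap. The lowest Ptprc level among the 16 columns was 1046 CPM, in tumour T2 of PDL1 rat P24, and the highest was 2049 CPM, in tumour T2 of PDL1+LY rat P31. The other 29 columns of the 2 groups lay below the threshold, with a highest value of 124 CPM. Since Ptprc selected the columns, its level in the groups is a description only: per rat it averaged 1308 ± 184 CPM in PDL1+LY rats (SD, n = 6) and 1284 ± 182 CPM in PDL1 rats (SD, n = 5). Cd3e and Epcam fitted the label. Cd3e, which encodes the epsilon chain of CD3 on T cells, was found at 610 to 1438 CPM in the 16 columns and at 0 to 37.3 CPM in the other 29. Epcam, an epithelial surface protein, was found at 5.31 to 55.6 CPM in the 16 columns, against 731 CPM or more in the 29 others. Some other markers overlapped, such as Cd68, a macrophage gene, at 25.8 to 716 CPM in the 16 columns and 2.34 to 132 CPM in the others. Each of the 16 tumours has 1 sample in the labels whose fraction is CD45.

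Column totals were 7805478 to 29727437 counts in PDL1+LY rats and 7830294 to 21925963 counts in PDL1 rats. The deposited sample table gives a batch number, of unstated kind. All 3 columns of rat P31 and the column of P34 were of batch 2, and the other 4 PDL1+LY rats were of batch 3. Among PDL1 rats, P28 was of batch 2, P27 of batch 3, and P24, P26 and P29 had a column in each. Batches differed in what they counted: 66 genes had no count in any of the 8 batch 2 columns and at least 10 counts in each of the 8 batch 3 columns, Pdcd1 among them. In limma voom with a batch term, 733 of 11769 genes differed between batches (adjusted p under 0.05). The direction of many gene lists turned between fits: of 31 list medians, 25 changed sign in at least 1 alternative fit, 10 of them in batch 3 columns alone and 7 in batch 2 columns alone.

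No gene passed the test between PDL1+LY and PDL1 leukocytes. Of 11932 genes tested, 0 had a Benjamini-Hochberg adjusted p under 0.05 in edgeR's quasi-likelihood test (0%), and the smallest adjusted p was 0.9996. At an unadjusted p under 0.05 there were 52 genes with a higher level in PDL1+LY rats (0.436% of those tested) and 60 with a lower level (0.503%), 112 in all or 0.939%. If no gene differed, a share of about 0.05 of the genes would fall under that p, which is more than were found. Why there were fewer was not tested. DESeq2 called 0 genes as well, with 204 at an unadjusted p under 0.05. Log2 fold changes are PDL1+LY over PDL1 throughout. Their median over all genes was 0.02, and 53.7% of genes lay above 0, which is the background for the counts of gene groups below.

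The intervals show what these rats could resolve. The 95% interval of the log2 fold change lay within 1 of 0 for 6503 genes (54.5% of those tested). Among the 8249 genes whose average log2 CPM reached 3 it did so for 6278 genes (76.1%), and the median half-width of their interval was 0.58. For the remaining genes a change of that size was not excluded by the interval, and a p that misses the threshold does not show that the groups are alike.

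Groups of rats that did not overlap were rare. For 2 genes every PDL1+LY rat lay above every PDL1 rat (0.0168% of genes tested), namely Osbpl2 and Ca6. For 3 genes every PDL1+LY rat lay below every PDL1 rat (0.0251%), namely Mybl2, Itgad and Cdc7. Ca6 and Cdc7, like Cd3e, Cd8a and Mki67 below, lie outside the rule for named genes and were chosen after their values were seen. CPM values in what follows are scaled by the trimmed mean of M values (TMM), and a level of 0 allows up to 3 counts, or 0.0738 to 0.313 CPM depending on the rat, by counting error alone.

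Mybl2, a transcription factor of proliferating cells, had 8.07, 13 and 14.8 CPM as the lowest, median and highest values of PDL1+LY rats, against 25.5, 15.5, 19.2, 42.9 and 24.1 CPM in PDL1 rats P24, P26, P27, P28 and P29. All 6 PDL1+LY rats were below the lowest PDL1 rat, P26, by a small margin. The log2 fold change was -1.06 ± 0.33 (SE), with a 95% interval from -1.75 to -0.37, an unadjusted p of 0.00411 and an adjusted p of 0.9996 in edgeR. In batch 3 columns alone it was -0.69, and without PDL1 rat P28 it was -0.80.

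Itgad, the alpha D chain of a leukocyte integrin, had a lowest level of 10.6, a median of 14.1 and a highest level of 14.9 CPM in PDL1+LY rats. PDL1 rats had 25.5, 17.5, 19.5, 34.7 and 24.5 CPM. The PDL1+LY rats lay close together and under every PDL1 rat, with a log2 fold change of -0.86 (95% interval -1.51 to -0.22, unadjusted p = 0.0109, adjusted p = 0.9996 in edgeR). Batch 2 columns alone gave -0.51. Cdc7, a kinase that starts DNA replication, had 6.86, 8.12 and 11.3 CPM (lowest, median, highest) in PDL1+LY rats and 11.6 to 15.3 CPM in PDL1 rats.

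Osbpl2, an oxysterol-binding protein that moves lipids between membranes, ranged over 45.7, 53.2 and 54.4 CPM (lowest, median, highest) in PDL1+LY rats, against 42.5, 40.5, 44.5, 36.3 and 45.2 CPM in PDL1 rats. The lowest PDL1+LY rat was P33, only just above PDL1 rat P29, and the difference was small, at a log2 fold change of 0.32 (95% interval 0.05 to 0.58, unadjusted p = 0.0207, adjusted p = 0.9996 in edgeR). Ca6, a secreted carbonic anhydrase, had 4.28 to 7.42 CPM in PDL1+LY rats and 2.52 to 4.28 CPM in PDL1 rats, so that its groups all but touch.

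**Figure D1:**
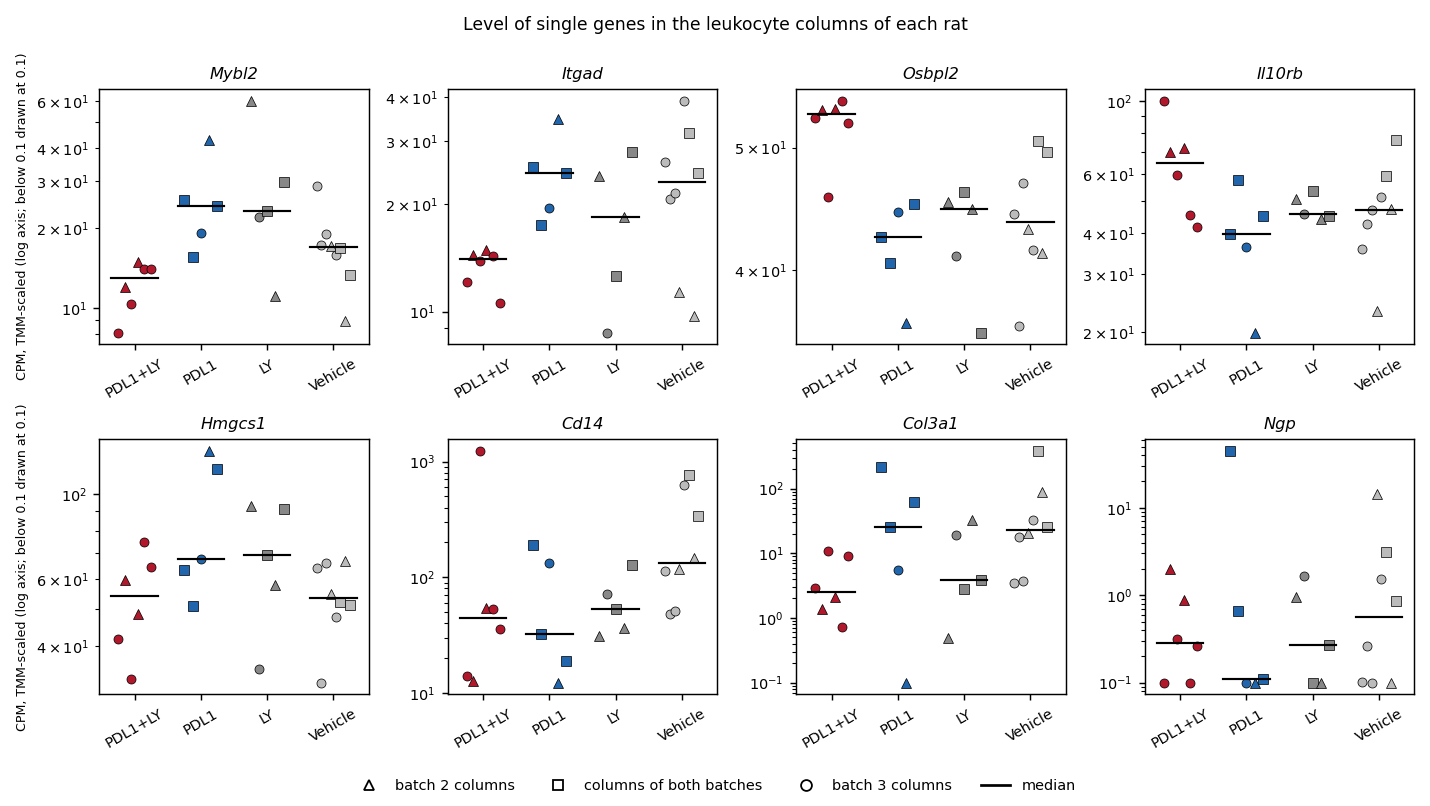
Level of 8 genes in the leukocyte columns of each rat, in TMM-scaled CPM on a log axis, for PDL1+LY, PDL1, LY and Vehicle rats; each point is a rat, its shape gives the batch of its columns, and the line is the median of the group, with levels below 0.1 CPM drawn at 0.1. Mybl2, Itgad and Osbpl2 do not overlap between PDL1+LY and PDL1 rats, whereas Cd14 is set apart by rat P33, at 1233 CPM, and Ngp by rat P24, at 44.6 CPM.

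Other genes with the smallest unadjusted p above 0 included receptors and glycolytic and membrane proteins. Il10rb, a chain of the interleukin 10 receptor, had 41.7, 64.9 and 100.1 CPM as the lowest, median and highest values of PDL1+LY rats, against 39.7, 57.9, 36.2, 19.97 and 44.9 CPM in PDL1 rats. The groups overlapped, and the log2 fold change of 0.71 (95% interval 0.15 to 1.26) was 0.37 in batch 3 columns and 1.13 in batch 2 columns. Gpnmb, a glycoprotein of lysosome-rich macrophages, had 17.02 to 279 CPM in PDL1+LY rats and 2.29 to 69.2 CPM in PDL1 rats. Its log2 fold change of 2.02 had an interval from 0.38 to 3.67, and the highest PDL1+LY rats, P33 with 279 CPM and P34 with 245 CPM, stood above the rest. Pfkl, the liver-type phosphofructokinase of glycolysis, averaged 23.8 ± 4.65 CPM in PDL1+LY rats and 16.8 ± 3.5 CPM in PDL1 rats, where P24 alone reached 23.1 CPM. Dynlt3, a dynein light chain, averaged 69.2 ± 11.4 CPM in PDL1+LY rats and 48.9 ± 11.1 CPM in PDL1 rats. Atxn3, a deubiquitinase, averaged 17.7 ± 4.18 CPM in PDL1+LY rats and 11.9 ± 2.88 CPM in PDL1 rats.

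Further names above 0 were Osbpl9, another oxysterol-binding protein, with a log2 fold change of 0.40, Rhobtb1 with 0.73, Phldb3 with 0.61 and Tmem273 with 1.04. For 2 genes the value rested on 1 rat. Sdc1, the syndecan of plasma cells and epithelium, had a log2 fold change of 1.21, with 460 CPM in P33 and 39.9 to 104.3 CPM in the other PDL1+LY rats, against 32.4 to 129 CPM in PDL1 rats. Without P33 it was 0.33. Nrg1, the ERBB ligand neuregulin 1, had 167 CPM in P33 and 0 to 2.56 CPM in the other PDL1+LY rats, against 0.245 to 8.62 CPM in PDL1 rats. Its log2 fold change of 3.72 turned to -1.005 without P33.

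Below 0, 3 of the 12 genes with the smallest unadjusted p encode enzymes of sterol synthesis. Hmgcs1, a synthase early in the mevalonate pathway, had a lowest level of 32.9, a median of 54.1 and a highest level of 74.9 CPM in PDL1+LY rats. PDL1 rats had 63.1, 51.03, 67.6, 129 and 116 CPM. The groups overlapped, with PDL1 rats P24, P26 and P27 inside the range of the PDL1+LY rats. The log2 fold change was -0.67 (95% interval -1.23 to -0.11). Cyp51, a sterol demethylase, averaged 60.7 ± 7.96 CPM in PDL1+LY rats and 90.5 ± 21.3 CPM in PDL1 rats (log2 fold change -0.58, 95% interval -1.06 to -0.09). Idi1, the isomerase of isoprenoid units, averaged 55.8 ± 16.4 CPM in PDL1+LY rats and 102.3 ± 59.7 CPM in PDL1 rats. Rat P28, at 207 CPM, was the highest PDL1 rat, and without it the log2 fold change of Idi1 was -0.45 in place of -0.87.

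Slco4a1, a membrane transporter of organic anions, had 4.70, 23.6 and 31.8 CPM (lowest, median, highest) in PDL1+LY rats, against 22.9, 26.3, 31.6, 114 and 36.01 CPM in PDL1 rats. P28 was again the highest PDL1 rat, and the log2 fold change of -1.15 became -0.50 without it. Epha2, an ephrin receptor kinase, averaged 6.60 ± 4.86 CPM in PDL1+LY rats and 18.3 ± 12.1 CPM in PDL1 rats (log2 fold change -1.47, and -1.09 without P28). Rfc3, a subunit of the clamp loader of DNA replication, averaged 27.8 ± 6.31 CPM in PDL1+LY rats and 41.7 ± 11.6 CPM in PDL1 rats, with a log2 fold change of -0.59 and of -0.25 in batch 3 columns. Aldh7a1, an aldehyde dehydrogenase, had a log2 fold change of -0.71 and Ankrd13d, an ankyrin repeat protein, of -0.79.

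**Figure D2:**
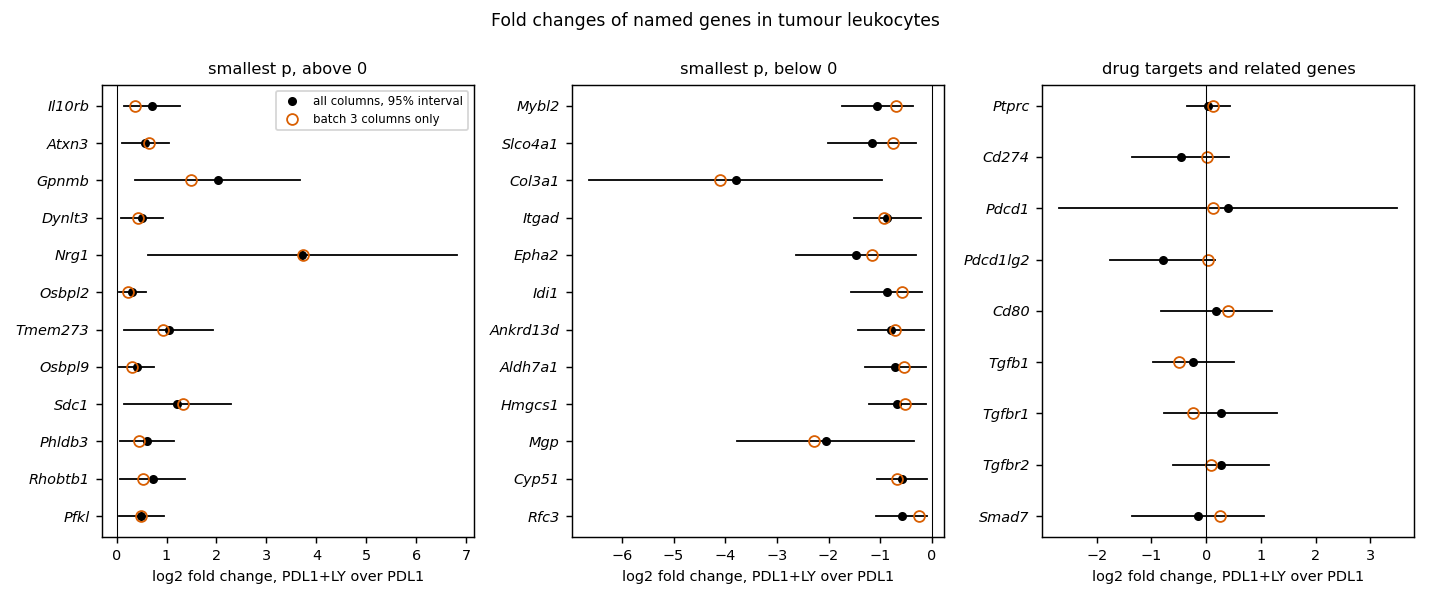
Log2 fold change, PDL1+LY over PDL1, of the 12 genes with the smallest unadjusted p above 0 (left), the 12 below 0 (middle) and 9 genes tied to the drugs and to the choice of columns (right); filled points with lines are the fit to all columns with its 95% interval, and open points are batch 3 columns only. The intervals of the 24 genes on the left and in the middle exclude 0 without adjustment, as the choice of these genes requires, and those of the 9 genes on the right all hold 0.

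The drug targets showed wide intervals around 0. Cd274, which encodes PD-L1 itself, had 31.2, 43.2 and 92.8 CPM as the lowest, median and highest values of PDL1+LY rats, against 117, 22.3, 61.3, 118 and 56.7 CPM in PDL1 rats. The PDL1+LY rats lay within the range of the PDL1 rats. Of these, P24 and P28 exceeded every PDL1+LY rat and P26 lay under all of them. The log2 fold change of Cd274 was -0.46 (95% interval -1.35 to 0.42) over all columns and 0.01 in batch 3 columns. Pdcd1lg2, the second PD-1 ligand, averaged 8.62 ± 2.86 CPM in PDL1+LY rats and 15 ± 11.4 CPM in PDL1 rats, with 35.2 CPM in P28. Its log2 fold change of -0.80 (95% interval -1.76 to 0.17) was 0.04 in batch 3 columns. Cd80, a costimulatory ligand that also binds PD-L1, averaged 67.1 ± 42.4 CPM in PDL1+LY rats and 59.1 ± 30.4 CPM in PDL1 rats. Pdcd1 was listed at 0 in all 8 batch 2 columns and had at least 164 counts in every batch 3 column, so its level over all columns follows the batch. The 4 batch 3 columns of PDL1+LY rats, scaled by their totals, had 17.5, 26.2, 24.1 and 21.2 CPM of Pdcd1 in P23, P33, P35 and P36, against 38.99 (P24), 19.6 (P26), 13.6 (P27) and 13.97 CPM (P29) in the 4 batch 3 columns of PDL1 rats. These columns overlapped, with the highest level in P24, and the log2 fold change in batch 3 columns was 0.13.

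Tgfbr1, which encodes the kinase that LY2157299 inhibits, averaged 27.1 ± 17.7 CPM in PDL1+LY rats and 22.6 ± 8.497 CPM in PDL1 rats (log2 fold change 0.26, 95% interval -0.76 to 1.29). Tgfbr2, its partner receptor, averaged 69.3 ± 40.3 CPM in PDL1+LY rats and 57.2 ± 21.8 CPM in PDL1 rats, and the lowest rat was P33 at 8.66 CPM. Tgfb1, the main leukocyte ligand, averaged 71.3 ± 24.6 CPM in PDL1+LY rats and 84.1 ± 36.1 CPM in PDL1 rats (log2 fold change -0.24, 95% interval -0.98 to 0.50). Smad7, a feedback inhibitor that TGF-beta induces, had 45.1, 132 and 775 CPM (lowest, median, highest) in PDL1+LY rats, against 127, 214, 548, 284 and 175 CPM in PDL1 rats. The highest PDL1+LY rat, P35, exceeded every PDL1 rat and 3 others, with P33 the lowest, were under all of them. Its log2 fold change was -0.15 (95% interval -1.35 to 1.05) and turned to 0.25 in batch 3 columns.

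Of 17 TGF-beta response genes tested, 0 passed and 11 lay above 0, with a median log2 fold change of 0.14. The median turned to -0.15 without P35, whose summed level of these genes was 5319 CPM against 3019 to 3478 CPM in the other PDL1+LY rats, and it was 0.27 in batch 3 columns and -0.04 in batch 2 columns. Itgae, the integrin of tissue-resident T cells and a TGF-beta target, had 31, 183 and 241 CPM (lowest, median, highest) in PDL1+LY rats, against 84.4, 121, 99.2, 125 and 114 CPM in PDL1 rats. In 4 of the 6 PDL1+LY rats its level was above that of every PDL1 rat, and P33 was the lowest of all. The log2 fold change was 0.54 (95% interval -0.18 to 1.27). Of 16 ligand and receptor genes of the pathway, 0 passed and 12 lay above 0, with a median of 0.07 that was -0.02 without P28 and -0.11 with voom.

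Most T cell genes had intervals within 1 of 0, as did most genes at an average log2 CPM of 3 or more. Of 14 tested genes of the T cell receptor and its signalling, 0 passed, 10 lay above 0 and the median log2 fold change was 0.14, with single values from -0.14 to 0.31. The interval of 12 of these 14 genes lay within 1 of 0, where 76.1% of all genes at an average log2 CPM of 3 or more did so. Their summed level was 4602, 6628 and 9125 CPM (lowest, median, highest) in PDL1+LY rats, with P23 the highest, and 4916, 6234 and 8107 CPM in PDL1 rats, with P28 the highest. Cd3e averaged 948 ± 250 CPM in PDL1+LY rats and 849 ± 151 CPM in PDL1 rats.

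CD8 and cytotoxic genes were far less resolved. Of 14 tested genes 0 passed and 7 lay on each side of 0, with a median of -0.06, and the interval of 1 gene lay within 1 of 0. The split depended on the columns: 12 of 14 genes lay above 0 in batch 3 columns (median 0.29) and 3 of 14 in batch 2 columns (median -0.40). Without P23 3 of 14 lay above 0 (median -0.47), and without P28 10 of 14 (median 0.25). Cd8a, a chain of the CD8 coreceptor, averaged 193 ± 145 CPM in PDL1+LY rats and 144 ± 58.2 CPM in PDL1 rats (log2 fold change 0.42, 95% interval -0.85 to 1.70). Cd8b, the other chain, had 10.1, 32.4 and 71.4 CPM (lowest, median, highest) in PDL1+LY rats, against 17.99, 26.6, 22.3, 26.5 and 49.4 CPM in PDL1 rats. The PDL1+LY rats spread to both sides of the PDL1 rats. Gzmb, the protease granzyme B, averaged 3.92 ± 1.88 CPM in PDL1+LY rats and 5.56 ± 2.29 CPM in PDL1 rats. In bulk RNA, fewer cells of a type and less RNA per cell cannot be told apart, here and for every cell type below.

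Of 13 helper T cell genes 0 passed and 8 lay above 0, with a median of 0.22 that was -0.04 without P35. Il7r, the interleukin 7 receptor of naive and memory T cells, had 196, 336 and 808 CPM (lowest, median, highest) in PDL1+LY rats, against 374, 217, 256, 134 and 180 CPM in PDL1 rats, and its log2 fold change of 0.74 had an interval from -0.03 to 1.504. Tbx21, the transcription factor of type 1 helper cells, averaged 70.8 ± 35.9 CPM in PDL1+LY rats and 130 ± 85.9 CPM in PDL1 rats, with 264 CPM in P28. Of 8 regulatory T cell genes 0 passed and 7 lay above 0, with a median of 0.16 that was -0.03 with voom. Foxp3, their defining transcription factor, averaged 209 ± 134 CPM in PDL1+LY rats and 156 ± 46.3 CPM in PDL1 rats, with 405 CPM in P33 and 348 CPM in P35. Il2ra, the interleukin 2 receptor chain of activated and regulatory T cells, had 1204 CPM in P35 and 516 to 636 CPM in the other PDL1+LY rats, against 416 to 647 CPM in PDL1 rats. Of 14 checkpoint and exhaustion genes 0 passed and 6 lay above 0, while 11 of 14 did so in batch 3 columns (median 0.13) and 4 of 13 in batch 2 columns (median -0.13). Cd96, a receptor of T and NK cells, came nearest, at an unadjusted p of 0.0511 (edgeR, adjusted p = 0.9996) and 349 CPM in P23 against 51.8 to 202 CPM in the other PDL1+LY rats and 75.8 to 113 CPM in PDL1 rats.

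**Figure D3:**
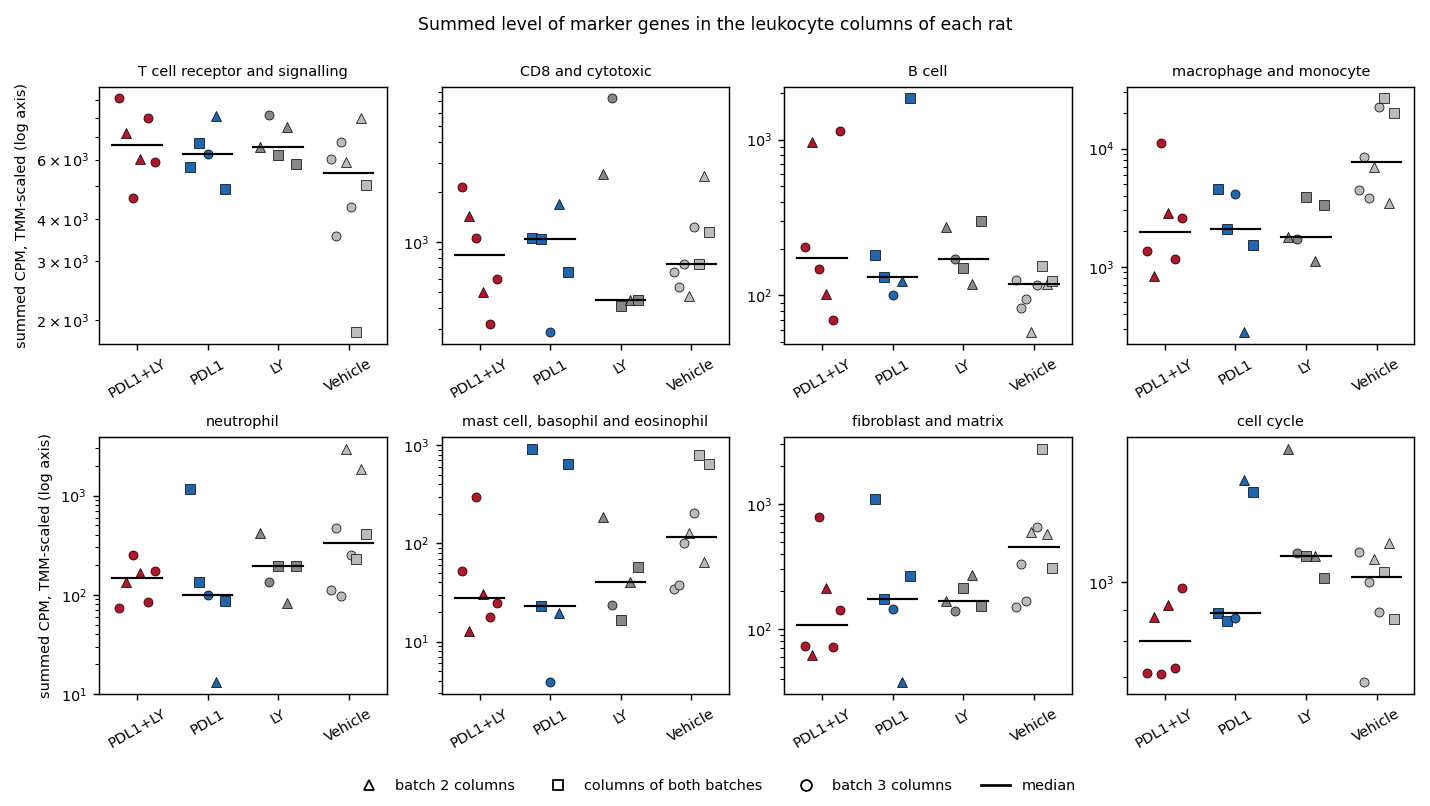
Summed level of the genes of 8 lists in the leukocyte columns of each rat, in TMM-scaled CPM on a log axis, for PDL1+LY, PDL1, LY and Vehicle rats; each point is a rat, its shape gives the batch of its columns, and the line is the group's median. T cell genes span 4602 to 9125 CPM in PDL1+LY rats and 4916 to 8107 CPM in PDL1 rats, while P33 tops the macrophage genes of PDL1+LY rats at 11183 CPM and P24 those of PDL1 rats at 4590 CPM.

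Myeloid genes were highest in 1 rat of each group. Of 18 tested macrophage and monocyte genes 0 passed and 14 lay above 0, with a median log2 fold change of 0.24. Their summed level was 845, 1985 and 11183 CPM (lowest, median, highest) in PDL1+LY rats, against 279, 2081 and 4590 CPM in PDL1 rats. P33 held the 11183 CPM, P24 the 4590 CPM and P28 the 279 CPM. Without P33 the median of the list was -0.40, and without P28 it was -0.04. Cd14, the lipopolysaccharide coreceptor of monocytes, had 1233 CPM in P33 and 12.8 to 54.5 CPM in the other PDL1+LY rats, against 190, 32.2, 133, 12.3 and 18.9 CPM in PDL1 rats. Cd68, a lysosomal protein of macrophages, had 48.6, 117 and 915 CPM (lowest, median, highest) in PDL1+LY rats, against 334, 124, 208, 25.98 and 126 CPM in PDL1 rats.

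Lists that share this pattern were complement (14 tested, 0 passed, 10 above 0, median 0.26 and -0.40 without P33), MHC class II presentation (12 tested, 0 passed, 7 above 0, median 0.06 and -0.44 without P33), chemokines (18 tested, 0 passed, 12 above 0, median 0.26 and -0.82 without P33) and inflammatory cytokines (16 tested, 0 passed, 11 above 0, median 0.21 and -0.40 without P33). Summed chemokine levels were 22966 CPM in P33 and 1309 to 2079 CPM in the other PDL1+LY rats, against 8430 CPM in P24 and 1425 to 1992 CPM in the other PDL1 rats. Ccl6, a chemokine of macrophages in rodents, was the chemokine with the smallest p: it had 1650 CPM in P33 and 16.7 CPM as the lowest PDL1+LY level, against 2.36 to 146 CPM in PDL1 rats. Chemokine genes had a median of 0.30 in batch 3 columns and of -0.28 in batch 2 columns, and complement genes of -0.07 in batch 3 columns and of 0.55 in batch 2 columns. Dendritic cell genes (11 tested, 0 passed, 4 above 0) had a median of -0.19, which turned to 0.16 without P29, and chemokine receptor genes (14 tested, 0 passed, 7 above 0) of 0.02.

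Granulocyte genes mostly lay below 0, and PDL1 rat P24 carried much of that. Of 13 neutrophil genes 0 passed and 11 lay below 0. An unadjusted p under 0.05 in edgeR was found for 2, Mmp8 and Ngp, against 0.503% of all genes in that direction. The list's median log2 fold change was -1.05. The median without P24 was 0.92 and with voom 0.40, so the direction turned. In batch 3 columns it was -1.46 and in batch 2 columns -0.16. The summed level of these genes leaned the other way by its group medians, at 149 CPM in PDL1+LY rats and 98.3 CPM in PDL1 rats. Its highest values were 252 CPM in PDL1+LY rat P33 and 1162 CPM in PDL1 rat P24. Ngp, a neutrophil granule protein of rodents, had 44.6 CPM in P24 and 0 to 0.654 CPM in the other PDL1 rats, and 0 to 2.02 CPM in PDL1+LY rats. Mmp8, the neutrophil collagenase, had 37.5 CPM in P24 and 0 to 0.273 CPM in the other PDL1 rats, and 0 to 1.28 CPM in PDL1+LY rats. Of 9 mast cell, basophil and eosinophil genes 0 passed and 8 lay below 0, with a median of -1.90, which was -0.61 without P24 and -3.60 without P33. Tpsb2, a mast cell tryptase, had 0.811, 5.67 and 48.96 CPM (lowest, median, highest) in PDL1+LY rats, against 228, 3.45, 0.653, 0.337 and 180 CPM in PDL1 rats. Only P24 and P29 among the PDL1 rats exceeded the highest PDL1+LY rat, P33.

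Fibroblast and matrix genes stand for cells that a leukocyte sort should leave out. Of 16 tested, 0 passed, 14 lay below 0 and 3 had an unadjusted p under 0.05, against 0.503% of all genes in that direction, with a median of -1.69 and of -0.63 without P24. Their summed level was 61.9, 108.2 and 782 CPM (lowest, median, highest) in PDL1+LY rats and 37.4, 174 and 1095 CPM in PDL1 rats, so the groups overlapped over nearly their whole range. Col3a1, a fibrillar collagen chain, had 0.732, 2.50 and 10.96 CPM (lowest, median, highest) in PDL1+LY rats, against 215, 25.2, 5.46, 0 and 62.2 CPM in PDL1 rats. Its log2 fold change of -3.80 (95% interval -6.63 to -0.97, unadjusted p = 0.0108, adjusted p = 0.9996 in edgeR) was -2.39 without P24. Mgp, the matrix Gla protein, had 57.1 CPM in P24 and a log2 fold change of -2.05, which was -1.06 without that rat. Dcn, the proteoglycan decorin, averaged 3.55 ± 3.02 CPM in PDL1+LY rats and 16.5 ± 16.3 CPM in PDL1 rats.

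**Figure D4:**
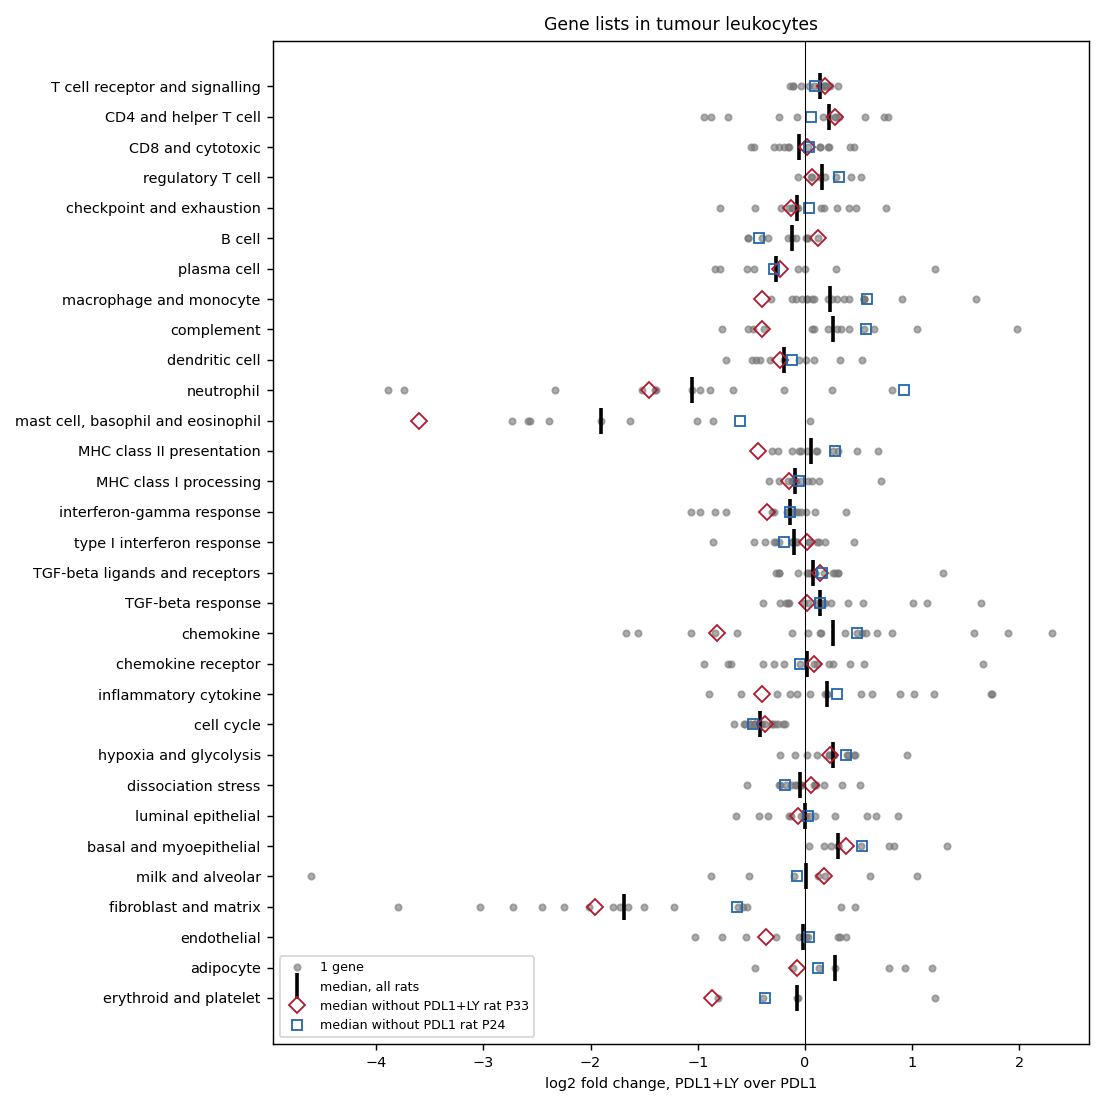
Log2 fold change, PDL1+LY over PDL1, of each tested gene of 31 lists (grey points), with the list's median over all rats (black bar), without PDL1+LY rat P33 (red diamond) and without PDL1 rat P24 (blue square). The neutrophil median turns from -1.05 to 0.92 without P24 and the macrophage median from 0.24 to -0.40 without P33, while the cell cycle median stays below 0.

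B cell genes varied widely between rats in both groups. Of 11 tested 0 passed and 7 lay below 0. Their summed level was 69.5, 175 and 1132 CPM (lowest, median, highest) in PDL1+LY rats and 100.2, 131 and 1834 CPM in PDL1 rats. The highest PDL1+LY rat was P36 and the highest PDL1 rat was P29, and the list's median of -0.13 was 2.30 without P29 and -0.79 without P36. In batch 3 columns 0 of 11 genes lay above 0 (median -0.82) and in batch 2 columns 9 of 11 (median 0.27), and with the largest column of each rat the median was -0.94. Within rat P31 the 3 tumours held 73.01, 4448 and 240.3 CPM (scaled by column totals), a wider range than that of the rats. Of 8 plasma cell genes 0 passed and 3 lay above 0, with a median of -0.27 that was 0.11 in batch 3 columns.

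Cell cycle genes all pointed the same way. Of 18 tested, 0 passed and 18 lay below 0, whereas 53.7% of all genes lay above 0, with a median of -0.42 and single values from -0.67 to -0.19. None of the 18 reached an unadjusted p under 0.05 in edgeR, and the smallest was 0.118, for Birc5. Across the other fits the median of the list ran from -0.51 to -0.22, its value in batch 3 columns. These genes are made by the same dividing cells and are not independent of each other. Their summed level was 706, 800.0 and 977 CPM (lowest, median, highest) in PDL1+LY rats and 863, 889 and 1469 CPM in PDL1 rats, so the groups overlapped. Mki67, the Ki-67 proliferation antigen, averaged 46.5 ± 13.4 CPM in PDL1+LY rats and 68.7 ± 16.98 CPM in PDL1 rats (log2 fold change -0.56, 95% interval -1.35 to 0.23). Pcna, the sliding clamp of DNA replication, had 214, 329.9 and 372 CPM (lowest, median, highest) in PDL1+LY rats, against 338, 336, 384, 698 and 512 CPM in PDL1 rats. Birc5, the mitotic protein survivin, averaged 13.3 ± 4.26 CPM in PDL1+LY rats and 21.2 ± 9.49 CPM in PDL1 rats, with 37.9 CPM in P28. Without P28, whose cell cycle sum was the highest of the 11 rats, the list's median was -0.30.

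Hypoxia and glycolysis genes leaned the other way. Of 15 tested 0 passed and 13 lay above 0, with a median of 0.26 that ran from 0.20 to 0.38 over the other fits. Bnip3, a mitophagy receptor induced by hypoxia, had 7.50, 16.5 and 24.5 CPM (lowest, median, highest) in PDL1+LY rats, against 10.6, 7.64, 12.4, 5.13 and 6.48 CPM in PDL1 rats. In 4 of 6 PDL1+LY rats its level was above that of every PDL1 rat, and the log2 fold change was 0.95 (95% interval -0.11 to 2.01). Eno1, the glycolytic enzyme enolase, averaged 1354 ± 570 CPM in PDL1+LY rats and 983 ± 180 CPM in PDL1 rats.

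Interferon genes lay slightly below 0. Of 16 genes of the interferon-gamma response 0 passed and 13 lay below 0, with a median of -0.14. Cxcl9, a chemokine that draws T cells and that interferon-gamma induces, had 0.737, 4.16 and 13.9 CPM (lowest, median, highest) in PDL1+LY rats, against 14.2, 8.68, 13.5, 12.4 and 8.09 CPM in PDL1 rats. P33 alone among the PDL1+LY rats reached the range of the PDL1 rats. Cxcl10, its close relative, averaged 29.97 ± 15.3 CPM in PDL1+LY rats and 53.6 ± 16.8 CPM in PDL1 rats (log2 fold change -0.84, 95% interval -1.83 to 0.15). Of 16 genes of the type I interferon response 0 passed and 10 lay below 0, with a median of -0.10, which was -0.31 in batch 3 columns and 0.31 in batch 2 columns. Of 15 MHC class I processing genes 0 passed and 11 lay below 0, with a median of -0.10 (0.04 in batch 3 columns), and the interval of 14 of them lay within 1 of 0.

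List medians of other cells that a sort can carry along changed with the batch, the choice of columns or single rats. Luminal epithelial genes (14 tested, 0 passed, 7 above 0) had a median of 0.00 and summed to 86.9 to 506 CPM in PDL1+LY rats, highest in P34, and to 184 to 291 CPM in PDL1 rats. Basal and myoepithelial genes (9 tested, 0 passed, 9 above 0) had a median of 0.31 over all columns. That median was -0.41 in batch 3 columns, 1.26 in batch 2 columns and 0.08 to 0.56 with single rats left out. Milk and alveolar genes (8 tested, 0 passed, 4 above 0), endothelial genes (11 tested, 0 passed, 5 above 0), adipocyte genes (7 tested, 0 passed, 5 above 0), erythroid and platelet genes (5 tested, 0 passed, 1 above 0) and genes of dissociation stress (16 tested, 0 passed, 6 above 0) had medians of 0.01, -0.02, 0.28, -0.07 and -0.05 in that order. Their part in the values above was not tested.

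The design also asks whether the inhibitor's effect differed with and without the antibody. The contrast was the difference between PDL1+LY and PDL1 less the difference between LY and Vehicle. Of 11932 genes 0 passed (0%), the smallest adjusted p was 0.692, and 853 genes had an unadjusted p under 0.05 (7.15%). DESeq2 called 0 genes too, with 1144 at an unadjusted p under 0.05. The contrast shares its PDL1+LY and PDL1 rats with the comparison above, so likeness of its values to those above is no separate evidence.

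Mybl2 was among the 6 genes with the smallest p in this contrast as well. It averaged 12.2 ± 2.60 CPM in PDL1+LY rats and 25.4 ± 10.6 CPM in PDL1 rats, and 29.2 ± 18.6 CPM in LY rats (n = 5) and 17.1 ± 5.60 CPM in Vehicle rats (n = 8). The difference of the log2 fold changes was -1.83 ± 0.46 (SE), with an unadjusted p of 0.000489 and an adjusted p of 0.692 in edgeR. Urb1, a ribosome biogenesis factor, averaged 26.9 ± 10.6 CPM in PDL1+LY rats and 37.3 ± 6.61 CPM in PDL1 rats, and 40.05 ± 13.2 CPM in LY rats and 20.7 ± 4.36 CPM in Vehicle rats (difference -1.42). Ppfia1, a liprin scaffold protein, averaged 37.3 ± 7.82 CPM in PDL1+LY rats and 44.6 ± 3.997 CPM in PDL1 rats, and 47.5 ± 9.85 CPM in LY rats and 29.3 ± 3.67 CPM in Vehicle rats (difference -0.95). For these 3 genes the mean with the inhibitor was the lower one beside the antibody and the higher one without it. Arfgef2, an exchange factor of vesicle traffic, had a difference of -1.13, Tax1bp3, a PDZ domain protein, of 1.63, and Clybl, a mitochondrial lyase, of 4.46.

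Tumour measurements of the same rats, averaged over the tumours of a rat, were compared by exact two-sided permutation tests and adjusted over 4 measurements. The CD8 fraction, of unstated denominator, was given for 4 of the 6 PDL1+LY rats, at 0.0801, 0.0130, 0.0328 and 0.0397 in P31, P33, P35 and P36. PDL1 rats had 0.0391, 0.0437, 0.152, 0.380 and 0.0364 in P24, P26, P27, P28 and P29. The mean difference was -0.0889 (exact p = 0.286, adjusted exact p = 0.848), with P28 far above the other rats. Tumour size, of unstated unit, averaged 20.6 ± 11.8 in PDL1+LY rats and 18.7 ± 9.38 in PDL1 rats (exact p = 0.784, adjusted exact p = 0.848). Growth rate, of unstated unit, averaged 3.35 ± 1.71 in PDL1+LY rats and 3.14 ± 1.82 in PDL1 rats (exact p = 0.848, adjusted exact p = 0.848). With the 1 further PDL1+LY rat and the 2 further PDL1 rats that gave no leukocyte column used here (7 rats in each group), the mean difference was 8.05 for tumour size (exact p = 0.205, adjusted exact p = 0.506) and 1.15 for growth rate (exact p = 0.253, adjusted exact p = 0.506). The time from NMU to sacrifice, of unstated unit, averaged 130.5 ± 60.99 in PDL1+LY rats and 105.6 ± 18.1 in PDL1 rats (exact p = 0.494, adjusted exact p = 0.848). Its median was 112 in both groups, and PDL1+LY rat P23 had the highest value, at 238. Of the tumours behind the columns, 3 were classed as stable and 5 as growing in PDL1+LY rats, and 2 as stable and 5 as growing in PDL1 rats, with 1 not given. These are counts of tumours and not of rats. The stable ones were T2 and T3 of P31 and T3 of P36, and in PDL1 rats T3 of P24 and T1 of P28. Among the PDL1 rats with a leukocyte column, P28 had the highest CD8 fraction, the smallest tumour, at 3, and the lowest growth rate, at 0.107. PDL1 rat P38, which gave no such column, also had a tumour size of 3, with a growth rate of -0.103.

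**Figure D5:**
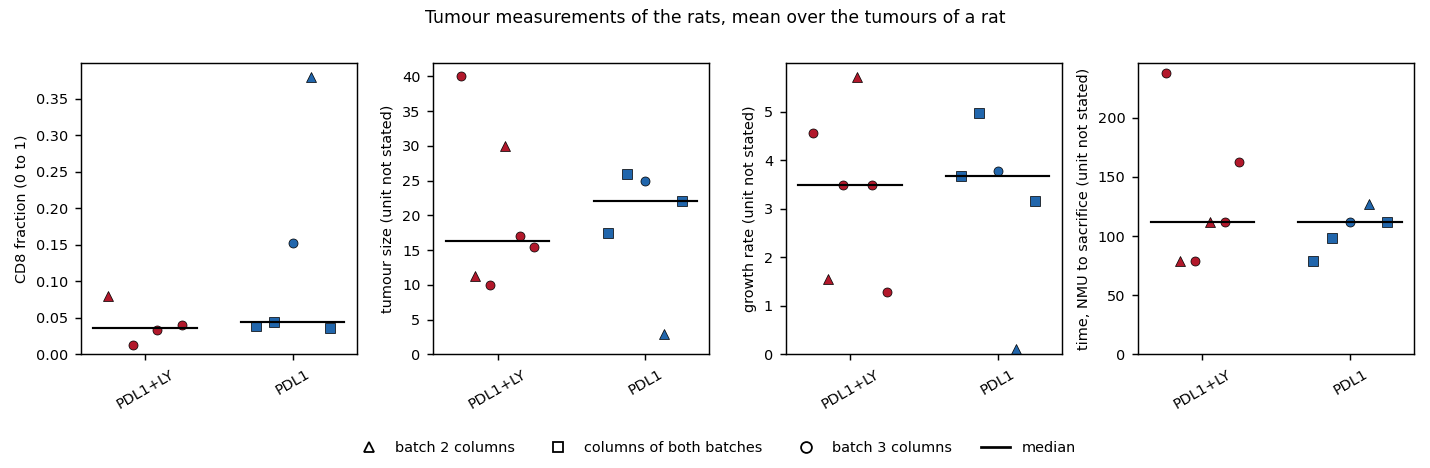
CD8 fraction, tumour size, growth rate and time from NMU to sacrifice of PDL1+LY and PDL1 rats, each point the mean over the tumours of a rat, its shape the batch of its leukocyte columns and the line the median of the group; the units are not stated. PDL1 rat P28 lies alone with a CD8 fraction of 0.380 and a tumour size of 3.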

How the data were processed

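RNA of sorted tumour fractions was made into libraries from less than 10 ng of input, per the labels' protocols, which mention no molecular identifiers. Per the submitters' processing notes, FastQC and STAR were used with rat build rn6 (no versions stated). Which tool counted the reads, and whether by strand, is not given in the sources used here. Thus overlapping and antisense genes cannot be told apart. The values used are raw whole-number counts per gene as deposited by the authors, in 1 table. The column names give rat and tumour but no fraction, so each column took its group from its rat's labels, and 1 column of values was not used. The authors' deposited sample table gave the CD8 fraction, the batch and the other tumour measurements, whose units are not stated. Column totals, given in the report, set the precision of low counts.

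Leukocyte columns were summed per rat, and 24 rats of 4 groups were fitted together. The test was edgeR 4.0.16's quasi-likelihood F test (R 4.3.3) with TMM scaling, filterByExpr and Benjamini-Hochberg adjustment, with 95% intervals from the same fit. DESeq2 1.42.0, limma 3.58.1, other scalings, filters, Ptprc thresholds of 100 and 600 CPM, fits by batch and fits without each rat were alternatives. The fits with batch 2 columns, with the batch share and with voom were chosen after seeing the data. Tumour measurements were compared by exact permutation in scipy 1.17.1. The scripts were tested on simulated data.

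The members, the 31 gene lists and the tests were chosen with earlier results of these data known. Named genes were to be the 12 genes in each direction with the largest change among those passing. As none passed, they are the 12 with the smallest p in each direction at an average log2 CPM of at least 3, with provisional symbols left out, the 3 genes with the smallest p of each list, 9 drug-related genes and 6 genes of the difference of effects. Ca6, Cdc7, Cd3e, Cd8a and Mki67 were chosen after their values were seen.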

Additional observations from a re-analysis of the deposited data

Results flagged for a closer look

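Of 304 groups of values tested for 1 rat standing apart from the others of its group (Dixon's test at 95%), 32 were flagged. Levels were tested on the log2 scale with 1 CPM added, and tumour measurements as given. Chance flags about 1 in 20 groups, but these values are not independent, since list sums hold genes that were also tested singly. In PDL1+LY rat P33, 12 values stood apart. Its high levels were Nrg1 at 167 CPM, Cd14 at 1233 CPM, Cd55, a complement regulator, at 1240 CPM, Ms4a2, a mast cell IgE receptor chain, at 4.70 CPM, the chemokine receptor Ccr1 at 209 CPM, the endothelial receptor Kdr at 54.9 CPM, the platelet factor Pf4 at 183 CPM, the chemokine sum at 22966 CPM and the inflammatory cytokine sum at 5824 CPM. Its low levels were Osbpl2 at 45.7 CPM, Irf8, a dendritic cell factor, at 15.8 CPM and Tgfbr2 at 8.66 CPM.

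PDL1+LY rat P35 stood apart with Il2ra at 1204 CPM and the TGF-beta response sum at 5319 CPM, and P23 with low Idi1 at 27.7 CPM and low Usp18, an interferon-induced protease, at 26.6 CPM. PDL1 rat P24 was high for Nrg1 at 8.62 CPM, Pfkl at 23.1 CPM, the neutrophil granule genes Mmp8 at 37.5 CPM, Ngp at 44.6 CPM and Camp at 29.03 CPM, and the chemokine sum at 8430 CPM. PDL1 rat P28 was high for Slco4a1 at 114 CPM, Rfc3 at 62.1 CPM and Birc5 at 37.9 CPM, and low for Apoe, a macrophage lipoprotein, at 36.4 CPM, Ccr1 at 0.877 CPM and the basal and myoepithelial sum at 8.57 CPM. PDL1 rat P29 was high for Tgfbr2 at 95.8 CPM, the milk genes Csn2 at 4.26 CPM and Btn1a1 at 3.42 CPM, and the B cell sum at 1834 CPM.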

How the results depend on the processing

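No gene passed in either contrast under any of the alternatives run, and the smallest adjusted p of PDL1+LY against PDL1 was 0.935, without a filter on low counts. The number of genes at an unadjusted p under 0.05 was 112 and differed by more than 1.5 times with no filter (843), Ptprc at 100 CPM or more (417), the batch share as a covariate (229), DESeq2 (204), batch 3 columns (185), voom (176), and without P33 (266), P24 (212), P29 (179) or P35 (174). For the difference of effects the largest departures from 853 were 1302, with the largest column of each rat, and 511, without P28.

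Log2 fold changes changed sign for drug-related genes within batches: in batch 3 columns Cd274 was 0.013, Pdcd1lg2 0.036, Tgfbr1 -0.24 and Smad7 0.25, and in batch 2 columns Cd80 was -0.47 and Tgfb1 0.21. With voom Cd80 was -0.061 and Nrg1 -0.11. Pdcd1 was -0.14 with the largest column of each rat and -3.02 with the batch share as a covariate. Leaving out 1 rat at a time gave -0.11 to 0.52 for Cd80, -1.005 to 5.74 for Nrg1, -0.024 to 0.081 for Ptprc, -0.98 to 0.27 for Smad7, -0.059 to 0.48 for Tgfbr1 and -0.0053 to 0.53 for Tgfbr2. It gave differences of -0.548 to 0.670 for growth rate and -1.99 to 4.07 for tumour size. The cause was not tested. Other list medians that moved were type I interferon response (0.31), basal genes (1.26) and adipocyte genes (1.44) in batch 2 columns. Medians of luminal (-2.58) and milk genes (-1.62) moved with Ptprc at 100 CPM or more. That threshold admitted only a further column of PDL1 rat P28, at 124 CPM of Ptprc, since the next highest lay at 66.2 CPM. Like every column of the 2 groups under the main threshold, the added column had Epcam at 731 CPM or more. Of 758 log2 fold changes of named genes under the alternatives, 734 kept their sign, and 87 of these moved by over 1.5 times, such as Sdc1 (0.33 without P33) and Slco4a1 (-0.50 without P28). The list medians that changed sign in none of the alternatives were 6 of 31: T cell receptor, mast cell, interferon-gamma, cell cycle, hypoxia and glycolysis, and fibroblast and matrix genes. With all rats of the groups, whether or not they gave a column, the differences were -0.0592 for the CD8 fraction, 8.05 for tumour size, 1.15 for growth rate and 6.14 for the time to sacrifice. Rat-level batch could not be a factor, because rats P24, P26 and P29 have columns in both batches, and that alternative was not run. No paired analysis was possible because the labels pair no rats across groups.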

Other observations

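Sterol synthesis was set out as a list of 22 genes after Idi1, Hmgcs1 and Cyp51 had been seen among the genes with the smallest p, so it is a description and no support. Of the 22 genes, 0 passed and 21 lay below 0, whereas 53.7% of all genes lay above 0. The median log2 fold change was -0.29. An unadjusted p under 0.05 was found for 6, against 0.503% of all genes in that direction, with Idi1, Hmgcs1 and Cyp51 among the 6. Among the 6 were also Msmo1, a methylsterol oxidase, at 35.3 ± 4.02 CPM in PDL1+LY rats and 54.7 ± 19.5 CPM in PDL1 rats, and Mvd, the mevalonate decarboxylase, at 22.7 ± 5.08 CPM in PDL1+LY rats and 33.5 ± 10.1 CPM in PDL1 rats. The list's median was -0.33 in batch 3 columns, -0.04 in batch 2 columns, -0.44 with Ptprc at 100 CPM or more and -0.46 with the largest column of each rat.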
